A study of Gasterosteus aculeatus with 16 samples.

Results

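Small structured RNAs are non-coding RNAs that work as folded molecules, mostly in the nucleus and nucleolus. Small nucleolar RNAs guide the chemical modification and cleavage of ribosomal RNA, small nuclear RNAs of the U family form the spliceosome, 7SK RNA restrains the elongation factor P-TEFb, and RNase P and RNase MRP RNAs are the catalytic parts of enzymes that trim transfer RNA and ribosomal RNA precursors. Most of these RNAs carry no poly(A) tail, and these libraries were prepared by oligo(dT) selection.

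The members here were the 8 predator-exposed clutches, of 16 clutches of threespined stickleback (Gasterosteus aculeatus) in the series. They were divided into sets chosen by the summed abundance of small structured RNAs: a high set of 5 clutches, named 10_5, 17_10, 24_28, 26_28 and 8_10, and a low set of 3 clutches, named 14_28, 3_10 and 6_21. The division used a measured value, 292 CPM or more against 70 CPM or less (CPM is the read count of a gene scaled to the total reads in genes of its library), so the sets are not treatment groups, and what follows describes a difference between 2 sets of libraries. The remaining 8 clutches, from control mothers, were left out of the comparison and of the division. The study picked the structured RNA genes by comparing exposed with control clutches, so the controls had a part in their choice.

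Each clutch was a pool of 10 whole embryos of 1 mother, taken at 3 days post-fertilization. All mothers were wild-caught fish of the Navarro River, and the mothers of the exposed clutches were chased daily with a rubber model sculpin before and during gravidity, while control mothers were not chased. Exposure was assigned to tanks of females, but which mother lived in which tank is not stated. The clutches of the high and the low set thus share the same maternal treatment label, and no label separates them. The days of chasing are reported only as a mean with its standard error, and collection ran from August to October. Neither is given per clutch, so either may differ between the sets. In whole pooled embryos, fewer cells of a type and less RNA per cell cannot be told apart.

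The exposed libraries held between 10091338 and 12765406 reads in genes, so that 1 read was worth about 0.0783 to 0.0991 CPM and the 3 reads that a count of 0 allows came to between 0.235 and 0.297 CPM, for counting error only. The mean depth was 11669400 reads in the high set and 11988300 in the low set, and the ranges overlapped (two-sided exact permutation test over the 56 possible divisions, p = 0.714, adjusted p = 0.833 over 7 library measures, n = 5 and 3). Genes with at least 1 read numbered 17351 to 17392 and did not separate the sets (exact permutation p = 0.893). The second number of the clutch name, whose meaning the labels do not give, was 10 or 28 in both sets, 5 in the high set only and 21 in the low set only. No 2 of the 16 libraries agreed within sampling noise.

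The value that divided the clutches was the summed CPM of the 27 genes with structured RNA names in the table of reads per gene. The sum was 726 CPM in clutch 10_5, 476 in 24_28, 418 in 8_10, 408 in 17_10 and 292 in 26_28. It was 69.6 CPM in 6_21, 37.4 in 3_10 and 35.3 in 14_28. The clutches just inside and just outside the thresholds were 26_28 and 6_21, with an empty interval between them. As a description, with no test, the high set averaged 464 CPM ± 161 (SD, n = 5) and the low set 47.4 CPM ± 19.2 (SD, n = 3). Among control clutches, 7 lay between 32.9 and 56.5 CPM, overlapping the low set, and clutch 15_2 lay apart at 263 CPM. The study chose these genes as higher in exposed than in control embryos, so low control sums are partly set by that choice.

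**Figure D1:**
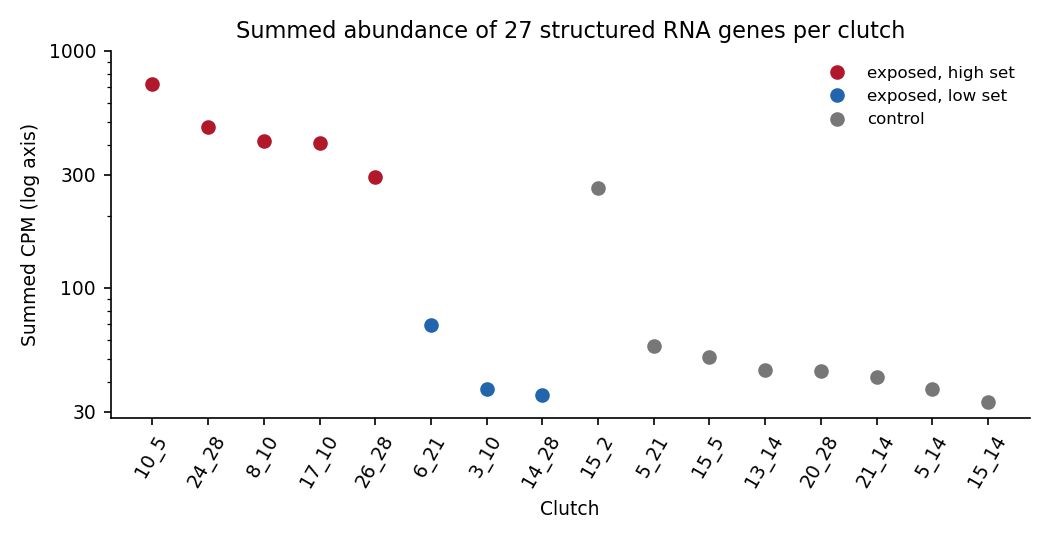
Summed CPM of the 27 structured RNA genes (log axis) in each of the 16 clutches; each point is 1 clutch. The 5 clutches of the high set lie between 292 and 726 CPM, the 3 of the low set between 35.3 and 69.6 CPM, and 1 control clutch, 15_2, lies at 263 CPM.

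The study had itself listed these genes from the same samples, as higher in exposed embryos, and they set the division, so their levels are given as a description only. Of the 27 genes, 23 had every high clutch above every low clutch, where 1.19% of all 17440 genes did. By the limma fit over all genes, 14 of the 27 passed FDR 0.1, where 0.138% of all genes did. Neither count is a result, because these genes chose the clutches. Clutch 10_5 held the highest value of 21 of the 27, and all 27 were higher in 15_2 than in any other control clutch.

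The 4 genes of U3, the box C/D snoRNA that directs early cleavage of the ribosomal RNA precursor, made up the bulk of the sum. Their summed level was 389 CPM in 10_5, 229 in 24_28, 212 in 17_10, 207 in 8_10 and 152 in 26_28, against 15.0 in 6_21, 9.14 in 14_28 and 4.29 in 3_10. U3 took between 48.2% and 53.6% of the structured RNA sum in every high clutch, but between 11.5% and 25.9% in the low clutches. These shares come from the values that divided the clutches and are a description.

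Each U3 copy is given in turn. The U3 gene of linkage group IX (IX:13743910-13744124, BROADS1 assembly) was at 97.4, 77.1, 63.1, 49.98 and 73.4 CPM in 10_5, 17_10, 24_28, 26_28 and 8_10, and at 3.93, 1.03 and 6.03 CPM in 14_28, 3_10 and 6_21. The 3 other copies lay close together on linkage group VII. The first (VII:2495950-2496164) was at 77.2, 50.5, 65.2, 38.1 and 42.3 CPM in the high clutches, in the same order, and at 2.08, 0.0933 and 2.04 CPM in the low clutches.

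The second copy (VII:2496916-2497130) stood at 169 CPM in 10_5, with 38.2, 65.1, 38.4 and 32.7 CPM in the other high clutches, and at 1.76, 1.12 and 3.13 CPM in the low clutches. The last copy (VII:2497885-2498099) was at 45.2, 46.5, 35.8, 25.9 and 58.2 CPM against 1.36, 2.05 and 3.76 CPM. No copy overlapped between the sets, where 1.19% of all genes had every high clutch above every low clutch. This is a description only, because the copies had a part in the division. The authors counted uniquely mapped reads, and near-identical copies can divide or lose reads, so the values of single U3 copies are uncertain while their sum is less so.

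7SK RNA (VI:7884497-7884817), which holds P-TEFb inactive in a ribonucleoprotein, had the highest mean CPM of the 27 genes, a read share that is not corrected for gene length. It was at 121, 78.0, 98.3, 57.4 and 94.7 CPM in 10_5, 17_10, 24_28, 26_28 and 8_10, and at 10.5, 12.7 and 13.9 CPM in 14_28, 3_10 and 6_21. The ratio of the means was 7.27, against 25.1 for the U3 sum. In the low set 7SK was the largest class in 14_28 and 3_10, with 29.8% and 33.9% of the structured RNA sum.

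The RNAs of the related enzymes RNase MRP and RNase P followed. RNase MRP RNA (XII:8690429-8690685) was at 40.3, 21.3, 31.0, 17.7 and 19.5 CPM in the high clutches and at 2.65, 0.746 and 2.51 CPM in the low clutches. The more abundant RNase P gene (XII:12345229-12345537) was at 44.5, 16.9, 23.4, 16.1 and 22.9 CPM against 1.84, 0.560 and 1.49 CPM. A second RNase P gene close by (XII:12344168-12344474) had 30 reads in the high set and no read in the 3 low libraries, which makes it at least 6.41-fold higher against the floor of 3 reads over the low set.

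Spliceosomal RNAs were scarce in both sets. U1 RNA, which recognises the 5′ splice site (scaffold_726:2603-2766), was at 16.9, 15.0, 13.2, 3.77 and 11.5 CPM in 10_5, 17_10, 24_28, 26_28 and 8_10 and at 0.721, 0.187 and 1.80 CPM in 14_28, 3_10 and 6_21. Clutch 26_28 was the lowest of the high set by a wide margin for U1. The 3 genes of U4, which pairs with U6 RNA in the spliceosome, averaged between 1.51 and 2.38 CPM in the high set, and the gene on linkage group II had no read in the low set, at least 28.5-fold lower against the floor of 3 reads over that set.

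The genes of 5.8S ribosomal RNA, a structural part of the large ribosomal subunit, did not move as a block. The copy on scaffold_54 (8028 to 8181) was at 17.7, 9.23, 12.2, 5.49 and 9.57 CPM in the high clutches and at 0.641, 0.187 and 1.57 CPM in the low clutches. The copy on scaffold_835 (6633 to 6786) was at 13.3, 11.2, 3.67, 3.53 and 7.90 CPM in the high clutches, and at 0.962, 10.2 and 19.2 CPM in 14_28, 3_10 and 6_21. It was the 1 gene of the 27 whose mean was higher in the low set, and its highest value was in a low clutch. The 5.8S sum of the sets overlapped, from 11.2 to 38.0 CPM against 1.76 to 22.5 CPM.

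The 17 genes outside the 10 most abundant averaged between 0.535 and 6.55 CPM in the high set and between 0 and 2.24 CPM in the low set. In 14 of them every high clutch lay above every low clutch, where 1.19% of all genes did. That count is a description only, because these genes had a part in the division. The 17 genes included the H/ACA snoRNAs, a class in which many but not all members guide pseudouridylation. They also included the RNAs of the Cajal body, which guide modification of spliceosomal RNA. The 8 H/ACA genes summed to 24.3 to 48.1 CPM in the high set and 5.97 to 11.4 CPM in the low set, and their ratio of 4.10 was the smallest of any class besides 5.8S. The 3 Cajal body RNAs (SCARNA6, SCARNA15 and snoU85) summed to 4.47 to 9.71 CPM against 0.373 to 0.802 CPM, and SNORD15, a box C/D RNA, was at 1.80 to 6.34 CPM against 0.0802 to 0.746 CPM.

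**Figure D2:**
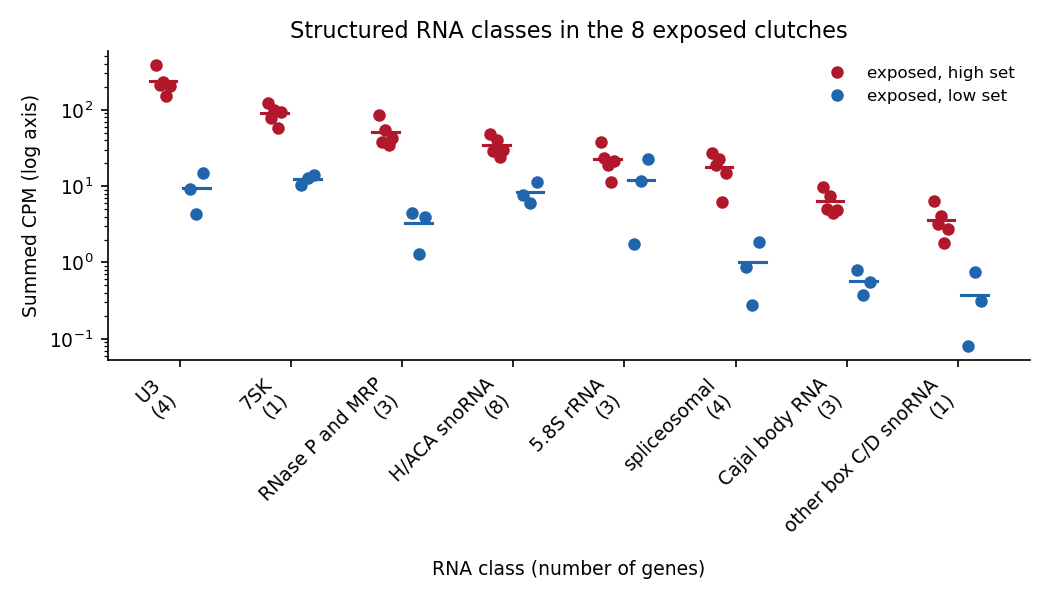
Summed CPM (log axis) of each class of structured RNA in the 8 exposed clutches; points are clutches, horizontal bars are set means, and the number of genes per class stands in parentheses. All classes but 5.8S rRNA separate the sets, and the ratio of the means runs from 1.88 for 5.8S rRNA to 25.1 for U3. Each class is part of the sum that divided the clutches, so this is a description only.

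Of the 27 genes, 10 lie inside a longer gene model, as intronic snoRNAs do, and 17 overlap no other model. The 4 SNORA73 genes lie within 1 model of linkage group XVIII (12655158 to 12658136). The 7 longer models that hold members did not follow them: their fitted log2 differences ran from -0.07 to 0.05, and none passed the test (limma, lowest adjusted p = 0.988). The kit was stranded, but the strand setting of the counting is not given in the sources used here.

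The comparison of the 5 with the 3 clutches was then run across all 17440 genes, on log2(CPM + 2.77), the scale of the deposited values, with limma's moderated test. On this scale the change of genes near or under 2.77 CPM is understated. In all, 24 genes passed FDR 0.1 (21 higher, 0.12% of all, and 3 lower, 0.0172%, in the high set), and at an unadjusted p under 0.05 there were 670 (3.84%). The median log2 difference of all genes was -0.05, and 35.7% of genes had a positive value. Outside the 27 structured RNAs, 10 of 17413 genes passed (0.0574%), 7 higher and 3 lower, and only these bear on measures that the division did not use. None of the 10 carries a gene name in the sources used here.

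**Figure D3:**
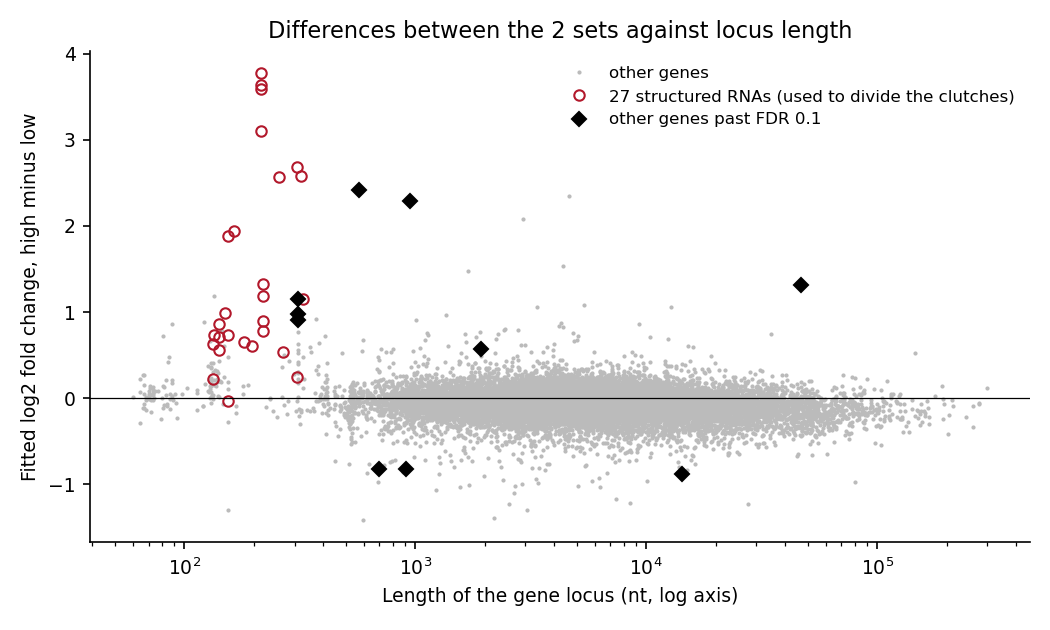
Fitted log2 difference (high minus low set) of each of the 17440 genes against the length of its locus (log axis); open circles are the 27 structured RNAs that divided the clutches and diamonds the 10 other genes past FDR 0.1. Of the diamonds, 7 lie above 0 and 3 below.

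On log2(CPM + 2.77), the largest fitted difference among these 10 genes belonged to ENSGACG00000001394, a model of 571 nt on scaffold_571 (7448 to 8018). It was at 19810 CPM in 10_5, 14379 in 24_28, 11796 in 8_10, 10386 in 17_10 and 8880 in 26_28, and at 3146 CPM in 6_21, 2109 in 3_10 and 1936 in 14_28. The sets did not overlap, and the means differed 5.44-fold (log2 difference 2.42 ± 0.24 SE, limma adjusted p = 0.00135). Within the clutches whose second number was 10 the values were 10386 and 11796 CPM against 2109 CPM, and within those numbered 28 they were 14379 and 8880 CPM against 1936 CPM.

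In FPKM (fragments scaled to gene length and library size), an estimate that assigns ambiguous fragments in proportion and covers 22456 gene models, the same model ran from 19001 to 36164 FPKM in the high set and from 4516 to 7025 FPKM in the low set (log2 difference 2.22 ± 0.26 SE, limma adjusted p = 0.00273). The scaffold carries 7 gene models. A 1647-nt model further along (10534 to 12180), not among the genes of the CPM table, was at 5670 to 9502 FPKM against 1793 to 2973 FPKM (log2 difference 1.69 ± 0.24 SE, adjusted p = 0.00747). Between them, 245 bases past the first, lies a 154-nt model, the length of the 3 genes named 5.8S rRNA.

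The 154-nt model gave opposite signs in the 2 kinds of file. By FPKM it was at 13474 to 44563 in the high set and 1112 to 2088 in the low set (log2 difference 4.04 ± 0.39 SE, adjusted p = 0.00145). By uniquely mapped reads it was at 0.348 to 15.3 CPM in the high set and 0.561 to 37.4 CPM in the low set (log2 difference -1.30 ± 0.72 SE, limma adjusted p = 0.988). The reads that map to 1 place and the fragments shared among copies therefore gave different answers for this model, which was singled out after its values were seen.

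The next largest fitted difference among these 10 genes, on the same scale, was that of ENSGACG00000020921, a 946-nt model at the start of the mitochondrial genome (MT:69-1014). It was at 1003 CPM in 10_5, 758 in 24_28, 509 in 8_10, 487 in 17_10 and 475 in 26_28, and at 165 CPM in 6_21, 135 in 14_28 and 85.5 in 3_10. The order of the high clutches was that of the structured RNA sum, and the sets did not overlap (5.04-fold, log2 difference 2.29 ± 0.26 SE, limma adjusted p = 0.00459).

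The 2 models remained past the threshold in each of the 8 fits that left out 1 clutch and in the 7 other fits examined gene by gene. Without 1 clutch, the log2 difference of the scaffold model ran from 2.25 to 2.63 and that of the mitochondrial model from 2.03 to 2.49. Both were also high in control clutch 15_2, which lay above the other controls in 5 of the 7 genes called higher, beside 14.7% of all genes. In 15_2, the control clutch with a high structured RNA sum, the scaffold model was at 14405 CPM against 2069 to 6650 CPM in the other 7 controls, and the mitochondrial model at 576 CPM against 70.1 to 289 CPM.

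**Figure D4:**
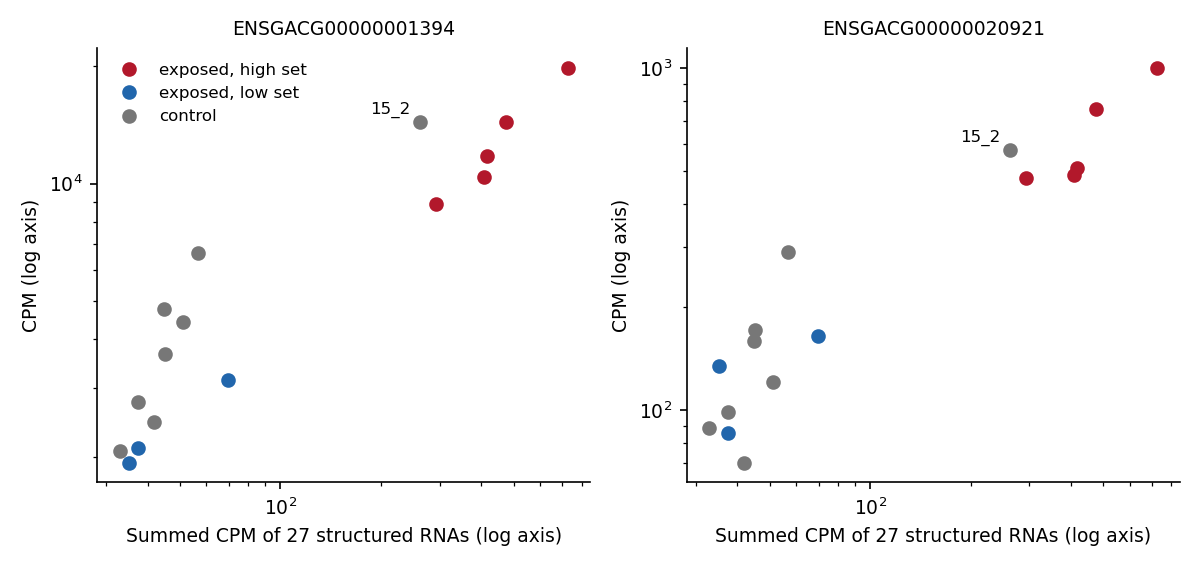
CPM of ENSGACG00000001394 (left) and ENSGACG00000020921 (right) against the summed CPM of the 27 structured RNAs in all 16 clutches (both axes log). Control clutch 15_2 lies within the range of the 5 high clutches, at 14405 CPM and 576 CPM, and the other 7 controls lie below all 5, at 2069 to 6650 CPM and 70.1 to 289 CPM.

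The same genes were examined in the 8 control clutches, as the slope of each gene on the log2 structured RNA sum. These clutches were not divided, but the study's choice of the 27 genes had used them. There 26 of 17440 genes (0.149%) passed FDR 0.1, 25 with a positive slope, of which 11 were among the 27 structured RNAs. Those 11 are no result, because the same 27 genes make up the sum. Of the 10 genes called in the exposed clutches outside the 27, 2 passed here. A slope of the same sign was found for 5, all among the 7 called higher. With all 8 control clutches, the 3 called lower had positive slopes (0.01, 0.26 and 0.16), opposite to their sign in the exposed clutches. These signs depended on clutch 15_2. Without it, the 3 slopes were -0.19 ± 0.40, 1.28 ± 0.50 and -0.93 ± 0.32 SE, in the same order. Among the genes called higher, the slope of a 312-nt model of scaffold_561 then turned negative (-0.26 ± 0.30 SE). That of a 46694-nt model of linkage group X turned positive (2.00 ± 0.74 SE). Of all genes, 62.0% had a positive slope. The slope of the scaffold model was 0.86 ± 0.12 SE (limma adjusted p = 0.0137) and that of the mitochondrial model 0.90 ± 0.15 SE (adjusted p = 0.0584).

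The calls depended on clutch 15_2. Without it, 10 genes passed, 3 of them with a positive slope, only 1 of them was among the 26, and none of the 27 structured RNAs passed. The gene kept was the scaffold model, with a slope of 2.07 ± 0.31 SE (limma adjusted p = 0.0625, n = 7 clutches). The mitochondrial model had a slope of 1.90 ± 0.54 SE and no longer passed (adjusted p = 0.335). Clutch 15_2 also had the fewest reads of all libraries, 8950867, and it lay above the other controls in 14.7% of all genes, and in 5 of the 7 genes called higher in the exposed high set.

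Of the other 5 genes called higher, 3 were models of 312 nt. They were singled out by their shared length after their values were seen. The first (scaffold_224:205720-206031) was at 4.66, 5.40, 3.75, 3.45 and 6.40 CPM in 10_5, 17_10, 24_28, 26_28 and 8_10 and at 0.240, 0.560 and 0.940 CPM in 14_28, 3_10 and 6_21 (log2 difference 1.15 ± 0.15 SE, limma adjusted p = 0.0127). The sets did not overlap, and the call held in all fits examined gene by gene.

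The second (scaffold_561:8554-8865) was at 2.25 to 4.26 CPM against 0.373 to 0.561 CPM (log2 difference 0.91 ± 0.13 SE, limma adjusted p = 0.0233), and the call was lost without clutch 6_21 (adjusted p = 0.157), with the second number as a block (0.267) and on FPKM (0.158). The third (XIX:2247117-2247428) was at 2.25 to 5.75 CPM against 0.157 to 0.560 CPM (log2 difference 0.98 ± 0.17 SE, adjusted p = 0.0877), and the call was lost in 6 of the 8 fits that left out 1 clutch, without any of 14_28, 17_10, 24_28, 26_28, 3_10 and 6_21, where the adjusted p ran up to 0.350, with voom (0.168), with the block (0.294) and on FPKM (0.211).

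The table held 17 models of 312 nt, all with a positive log2 difference (0.02 to 1.15, median 0.53), and 10 of them had every high clutch above every low clutch, beside 1.19% of all genes. Their summed level was 34.9 to 54.4 CPM in the high set and 10.8 to 12.9 CPM in the low set. It was 41.6 CPM in control clutch 15_2 and 10.3 to 21.5 CPM in the other controls. Within 100 kb of 1 of the 4 named histone genes lay 8 of the 17, the 3 called among them, where 0.201% of the genes outside the 27 did. Models of equal length can be near-identical copies that share reads, so the 17 are not independent. The 4 named histone genes themselves, 3 of them linker histone HIST1H1A and 1 H2AFJ, did not pass, with log2 differences from -0.36 to 0.09.

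The remaining higher calls were less firm. A 46694-nt model of linkage group X (12701438 to 12748131) was at 305, 277, 352, 281 and 190 CPM in the high clutches and at 99.7, 86.3 and 152 CPM in the low clutches (log2 difference 1.31 ± 0.20 SE, limma adjusted p = 0.0414). In the control clutches it ran from 80.1 to 477 CPM and was not high in 15_2 (108 CPM). The call was lost without any of 10_5, 14_28, 17_10, 26_28 and 3_10, with an adjusted p of 0.111 to 0.165, and when the controls entered the fit (0.595). A 1933-nt model of linkage group XI (14099825 to 14101757) was at 1.83 to 2.67 CPM against 0.466 to 0.721 CPM (log2 difference 0.57 ± 0.10 SE, adjusted p = 0.0877), and the call was lost whichever clutch was left out, with an adjusted p up to 0.283, and with voom (0.197) and the block (0.390).

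In all, 3 genes were called lower in the high set. ENSGACG00000008774, a 910-nt model of linkage group XVI (17438346 to 17439255), was at 0.297, 0.261, 0.833, 0.549 and 0.749 CPM in 10_5, 17_10, 24_28, 26_28 and 8_10 and at 3.45, 3.36 and 2.43 CPM in 14_28, 3_10 and 6_21 (log2 difference -0.82 ± 0.11 SE, limma adjusted p = 0.0134). The call held in all fits examined gene by gene. Control clutches ran from 0.472 to 3.53 CPM and overlapped both sets. The model lies beside lens crystallin genes, the nearest named crygm2c at 17431079 to 17431864. A model of linkage group XIII (5074451 to 5088689) was at 0 to 0.392 CPM against 2.00 to 3.92 CPM (log2 difference -0.88 ± 0.12 SE, adjusted p = 0.0164). It was lost with the controls in the fit (0.477) and with the second number as a block (0.177), and it ranged from 0 to 5.00 CPM among controls.

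ENSGACG00000013871 (XI:13642596-13643293) was the abundant gene among them. It was at 1304, 1012, 1206, 1330 and 1362 CPM in the high clutches and at 2612, 2277 and 1750 CPM in the low clutches (log2 difference -0.82 ± 0.14 SE, limma adjusted p = 0.0795). Control clutches ran from 871 to 1691 CPM, overlapping the high set and below every low clutch. The call was lost in 7 of the 8 fits that left out 1 clutch, all but that without 6_21, with an adjusted p of 0.118 to 0.221, with median-of-ratios scaling (0.579), with the controls in the fit (0.265) and on FPKM, where the log2 difference was -0.45 (0.352). It lies in the same stretch as the embryonic globin genes hbbe1.1 and hbae1, which encode subunits of haemoglobin. Of the 9 models of this stretch, chosen after the call, 5 had a positive and 4 a negative log2 difference, and no other passed.

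The named globins did not follow the called model. The beta globin hbbe1.1 was at 3271, 4266, 4317, 4090 and 4594 CPM in the high clutches and at 4176, 2874 and 3032 CPM in the low clutches (log2 difference 0.30 ± 0.15 SE, adjusted p = 0.988), and the sets overlapped. The more abundant of 2 alpha globin genes named hbae1 varied widely within each set, from 16.9 to 192 CPM in the high clutches and from 12.1 to 266 CPM in the low clutches. An unnamed neighbour (XI:13644467-13645155) was at 1824 to 3216 CPM against 3285 to 5801 CPM and did not pass (log2 difference -0.97 ± 0.21 SE, adjusted p = 0.300).

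Nuclear models of at most 350 nt outside the 27 were looked at as a class, a length chosen after the values were seen. Of 156 such models, 110 (70.5%) had a positive log2 difference, 3 passed, all higher, and the median was 0.08. The 17241 longer nuclear models had a median of -0.05, 35.2% were positive, and 6 passed, 3 in each direction. Every high clutch lay above every low clutch in 27 of the 156 short models and below in 2, where all genes gave 1.19% and 1.56%. The 156 include the 17 models of 312 nt described above, which supplied all 3 calls and 10 of these 27. The class is thus not separate from those 17, which are not independent of each other. As a share of reads, the short models took 0.0432% to 0.0560% in the high set and 0.0410% to 0.0463% in the low set, which overlapped (exact permutation p = 0.107, adjusted p = 0.250).

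The FPKM files hold many more short models, since the authors removed no gene from them. Only models above 0 in more than 1 of the 8 exposed clutches were tested, so a model at 0 throughout the low set entered through the high set alone. With log2(FPKM + 1), 347 of 20806 models (1.67%) passed FDR 0.1, 303 of them higher in the high set. Of the 347, 276 were at most 350 nt long (of 684 such models tested, 40.4%), 275 of them higher. Of the 276, 222 had no entry in the CPM table. The 276 also include 25 of the 27 structured RNAs, whose values divided the clutches. The excess of higher calls among short models is to be read with both limits. Only 71 of the 20122 longer models passed, 28 higher and 43 lower. Among the 347, 81 shared all 8 values with another model, so these counts are counts of models and not of independent RNAs. All 27 structured RNAs were higher in the high set by FPKM and 25 passed, a description only.

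The 2 structured RNA genes that the study names but the CPM table lacks could be followed by FPKM. The 5S rRNA gene (XII:16555942-16556060), whose product is part of the large ribosomal subunit, was at 55.1, 1.57, 59.2, 29.8 and 0.752 FPKM in 10_5, 17_10, 24_28, 26_28 and 8_10. It was listed at 0 in the 3 low clutches and in 7 controls, and at 6.59 FPKM in 15_2. The U2 gene, for the RNA that pairs with the branch point, was listed at 0 in the low set and all controls and at 0 to 20.2 FPKM in the high set. Neither passed (limma adjusted p = 0.292 and 0.251). Both were at 0 throughout the low set and entered this test through the high set alone, so their values are a description only.

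The mitochondrial genome encodes subunits of the respiratory chain, and its messenger RNAs carry short poly(A) tails. Of its 16 models, 14 had a positive log2 difference with a median of 0.51, beside -0.05 over all genes, but only the 946-nt model passed (1 of 16, where 0.138% of all genes passed). A 1690-nt model next to it (MT:1087-2776) was at 2146, 864, 1457, 1055 and 786 CPM in the high clutches and at 318, 244 and 942 CPM in 14_28, 3_10 and 6_21. It overlapped between the sets through 6_21 and did not pass (log2 difference 1.48 ± 0.41 SE, adjusted p = 0.822).

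The mitochondrial messenger RNAs differed less. COX2, a subunit of cytochrome c oxidase, was at 4367, 3205, 3782, 2614 and 2364 CPM in the high clutches and at 2456, 1842 and 2610 CPM in the low clutches (log2 difference 0.48 ± 0.19 SE, adjusted p = 0.988). ND3, a subunit of complex I, was at 249, 178, 172, 159 and 123.3 CPM against 115, 87.4 and 142 CPM (0.60 ± 0.20 SE, adjusted p = 0.988). In both genes the sets overlapped through 8_10. The 2 unnamed models before ND1 also went apart from the messenger RNAs in control clutch 15_2, which was the highest control for both of them and the lowest for COX2, COX3, ND1, ND3, ATP6 and CYTB.

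**Figure D5:**
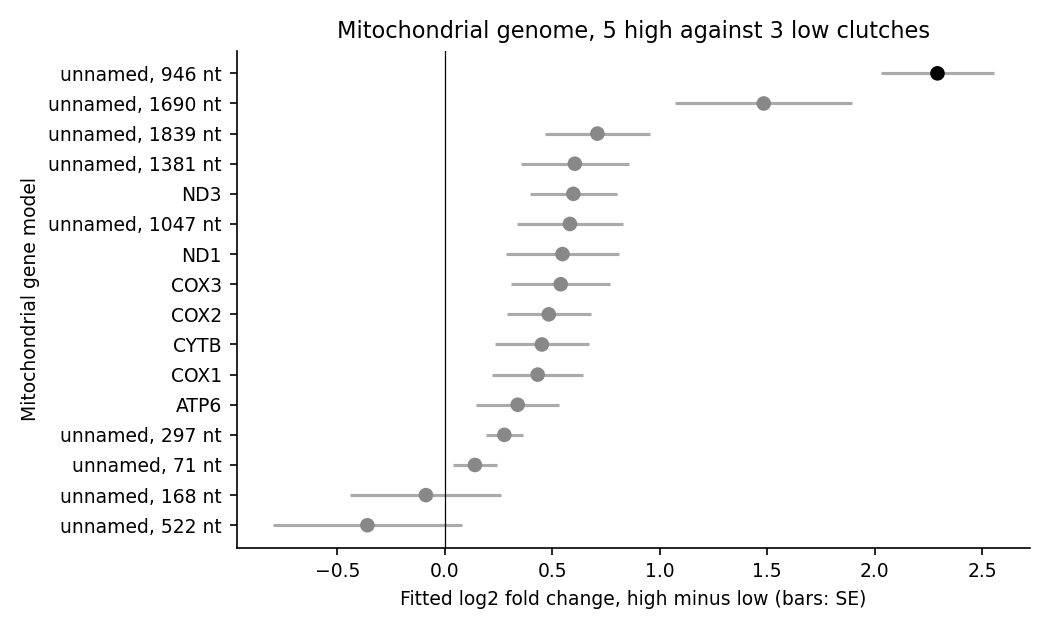
Fitted log2 difference (high minus low set) with its SE for the 16 models of the mitochondrial genome; unnamed models are given by their length. The 946-nt model at 2.29 (black) passed FDR 0.1, the other 15 (grey) did not, and 14 of 16 lie above 0.

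As a share of all reads in genes, the mitochondrial genome took 1.89%, 1.20%, 1.41%, 1.13% and 0.899% in 10_5, 17_10, 24_28, 26_28 and 8_10 and 0.918%, 0.646% and 1.00% in 14_28, 3_10 and 6_21. The sets overlapped (difference 0.45 percentage points, exact permutation p = 0.107, adjusted p = 0.250). The 2 unnamed models before ND1 together took 0.130% to 0.315% in the high set and 0.0329% to 0.111% in the low set. They did not overlap, with the smallest p this design allows (exact permutation p = 0.0357), but the difference failed the correction over 7 measures (adjusted p = 0.250). The pair includes the mitochondrial model already called in these same libraries. Its share is therefore not a measure separate from that call. The 100 most abundant nuclear genes took 26.3% to 29.8% against 25.3% to 29.9% (exact permutation p = 0.5).

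Genes for the proteins that work with structured RNAs were described from lists of named genes. Only 389 of the 17440 genes have a name here, all from the study's list of genes that differed between exposed and control embryos. The lists thus hold preselected genes and are not surveys of pathways. None of the 8 nucleolar and snoRNA proteins passed, where 0.0574% of the genes outside the 27 did. Of the 8, 5 were higher, beside 35.7% of all genes, and their median log2 difference was 0.04. Among them NCL (nucleolin, a major nucleolar protein) averaged 953 CPM in the high set and 883 CPM in the low set, and the nucleolar chaperone NPM1 averaged 333 and 323 CPM. None of the 9 splicing factors passed (6 higher, median 0.04), with SRSF4 at 308 against 283 CPM, nor did any of the 3 genes matched as ribosomal proteins, with RPL27 at 2331 against 2320 CPM (the third, RPS6KA3, is a kinase of a ribosomal protein). The lists for histones (4 genes, 1 higher) and nuclear respiratory chain genes (10 genes, 6 higher, median 0.02) held no call either. With so few calls among all genes, lists this short would rarely hold one. The lack of calls is thus not a result about these genes.

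Markers of embryonic tissues were examined in the same way, from the same preselected genes. Pools can differ in cell make-up or stage, and the part of either in the differences above was not tested. All 13 lens genes had negative log2 differences (median -0.41, from -0.99 to -0.15), where 35.7% of all genes were positive, and none passed. Among them crygm2c, a lens gamma crystallin, averaged 180 CPM in the high set and 234 CPM in the low set at its most abundant copy. The sets overlapped in each of the 13 lens genes. Some of these are neighbouring gamma crystallin copies, which can share reads, so the 13 are not independent. Of 29 plasma protein genes 5 were higher (median -0.23), of 9 muscle genes 2 (median -0.19), of 20 neural and retinal genes 5 (median -0.07), and of 4 blood genes 2 (median 0.06). Cell cycle genes (7, median -0.02) and immediate early and heat shock genes (6, median -0.05) lay near the median of all genes. None of these lists held a call, which with so few calls among all genes is not a result about their members.

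No named gene outside the 27 passed the test with a mean of at least 5 CPM, so the named genes with the lowest unadjusted p are given as values. The highest ranked were a pair of genes named URGCP, upregulator of cell proliferation. The first (XI:4320059-4324681) was at 19.2, 26.9, 1.42, 28.1 and 6.57 CPM in 10_5, 17_10, 24_28, 26_28 and 8_10 and at 0, 0.0933 and 0.548 CPM in the low clutches (log2 difference 2.34 ± 0.55 SE, limma adjusted p = 0.455). The second (XI:4378241-4381177) was at 16.6, 17.8, 0.833, 24.3 and 6.32 CPM against 0.0802, 0.280 and 0.470 CPM (2.08 ± 0.52 SE, adjusted p = 0.578). Both were low in 24_28, and without that clutch both passed (adjusted p = 0.0209 and 0.0167), and the first also passed with a prior of 0.5 CPM (0.0910). Controls ran from 0.0842 to 8.09 CPM for the first, with 0.670 CPM in 15_2.

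Further genes with higher values in the high set were CYP2W1, a cytochrome P450, at 171 to 248 CPM against 127 to 188 CPM, and NUGGC, a nuclear GTPase, at 38.3 to 84.3 CPM against 24.1 to 50.1 CPM. Those with lower values were CPO, a carboxypeptidase, at 9.17 to 25.2 CPM against 26.4 to 43.6 CPM, and COMTD1 at 1.58 to 9.75 CPM against 6.89 to 26.3 CPM. CPO did not overlap between the sets and did not pass (log2 difference -1.03 ± 0.26 SE, adjusted p = 0.610), but passed with the second number as a block (adjusted p = 0.0170) and on FPKM (0.0926). CKB, brain creatine kinase, was at 42.6 to 83.3 CPM against 69.6 to 142 CPM. AKR1A1 (an aldehyde reductase), C6 (a complement component) and IFI44 (interferon-induced) had log2 differences of -0.42, -0.72 and -0.61, each with an adjusted p of 0.988.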

How the data were processed

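Poly(A)-selected, single-end RNA-seq libraries of 10 pooled embryos were made with a TruSeq Stranded kit and sequenced as 1 pool on 2 lanes. Per the methods and the submitters' processing notes, the authors aligned reads with TopHat2 2.0.8 to BROADS1 (Ensembl annotation), counted uniquely mapped reads within genes, and removed genes without reads or found in 1 sample under 1 CPM. The deposited logCPM values (edgeR, version not given in the sources used here) are log2 of the CPM, a count scaled to the reads in genes of its library, plus a constant. That constant was 2.77 CPM in every library, and subtracting it returned whole reads (largest deviation 3.8e-09 of a read). The deposited FPKM values came from Cufflinks 2.1.1, which divides ambiguous fragments in proportion, so a value shared by copies is not 1 gene's reads.

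The 27 genes summed are those with a structured RNA name in the study's gene table, which also gave all names (389 of 17440 genes). That table lists genes the study called different between exposed and control embryos. A reference table of another assembly matched no gene, and positions are those of the files. The division, the gene lists and the genes described were chosen with earlier results of these data known.

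Sets were compared with limma 3.58.1 (R 4.3.3; lmFit, eBayes with trend) on the logCPM of the 8 exposed clutches, with Benjamini-Hochberg adjustment over 17440 genes and FDR 0.1. P-values refer to sets defined by a measured value, and so describe how these libraries differ, not a treatment. FPKM was tested as log2(FPKM + 1) over 20806 models, those above 0 in at least 2 of the 8 exposed clutches. Library measures were compared by two-sided exact permutation tests over 56 divisions (scipy 1.17.1), whose smallest p is 0.0357. Code was tested on simulated data. Genes described in full were the 10 structured RNAs of highest mean CPM; outside them, those past FDR 0.1 (no named gene with a mean of at least 5 CPM was), then the 6 named genes of lowest p per direction; and up to 4 members per list. Of unnamed genes, at most 2 per direction are given by identifier. Alternatives were other scalings (median-of-ratios, TMM, quantile), priors, filters, weights, voom, a block, the controls in the fit, a continuous covariate, FPKM, FDR 0.05 and leaving out each clutch. The list for poly(A) and RNA exosome factors had no named gene and gave no result.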

Additional observations from a re-analysis of the deposited data

Results flagged for a closer look

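The values of 18 measures were examined for a clutch far from the others in its group, separately in the 8 exposed and the 8 control clutches (36 groups). Chance alone places a value this far in about 1 group in 20. All 10 far values found were in control clutch 15_2, and each was the highest of the controls; the measures overlap, since the class sums add up to the total. The total of the 27 structured RNAs was 263 CPM in 15_2, with the next control at 56.5 CPM. U3 genes summed to 97.4 CPM (next 5.99 CPM), and 7SK was at 90.4 CPM (next 30.7 CPM). RNase P and MRP genes summed to 26.0 CPM (next 2.70 CPM), H/ACA snoRNA genes to 20.3 CPM (next 10.2 CPM) and spliceosomal genes to 9.38 CPM (next 0.409 CPM). Cajal body RNA genes summed to 4.02 CPM (next 0.842 CPM), and the box C/D gene SNORD15 was at 0.894 CPM (next 0.441 CPM). ENSGACG00000001394 was at 14405 CPM (next 6650 CPM) and ENSGACG00000020921 at 576 CPM (next 289 CPM). No exposed clutch was far from the others on any of these measures. The exposed clutches were divided by the structured RNA sum, however, so a search for 1 far clutch says little about them there.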

How the results depend on the processing

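The 24 calls over all genes stayed within 1.5 times under median-of-ratios, TMM and quantile scaling, with a filter on the mean CPM, with a prior of 0.5 CPM (33), with the controls in the fit (35), at FDR 0.05 (16 calls) and with each clutch left out (16 to 24). They moved to 15 with voom on the recovered reads, 38 with the log2 structured RNA sum as a continuous covariate and 347 on FPKM. Clutch weights gave 1085 calls, 294 of them higher, by a fit of the weights that did not converge, and 44 by gene-by-gene weights, chosen after seeing the data; the cause was not tested. With the second number of the name as a replicate block in the 6 clutches numbered 10 or 28, 20 genes passed (14 higher), against 17 in the same 6 clutches without a block, and the second number is not shown to pair clutches. Outside the 27 structured RNAs, counted after seeing the data, the 10 calls became 17 with the controls in the fit, 16 with a prior of 0.5 CPM, 1063 and 28 with the 2 kinds of weights, 21 with the continuous covariate, 322 on FPKM, and 6 to 14 with 1 clutch left out (6 without 17_10 and 6 without 26_28). Of these 10 genes, 4 passed in all 15 fits examined gene by gene, which do not cover every alternative above. None of 330 refits of named or called genes changed sign. The control slope gave 23 to 32 calls with a clutch left out, and 10 without 15_2.

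With 1 clutch left out, the difference in depth ran from -951368 to 75599 reads (positive without 10_5 and without 6_21, where it was 69616) and in genes with a read from -9.70 to 3.58 (3.58 without 10_5 and 3.30 without 3_10). For the 100 most abundant genes it ran from -0.19 (without 3_10) to 2.13 percentage points. None of these 3 had passed. For the 2 unnamed mitochondrial models it ran from 0.0968 to 0.152 percentage points, with an exact permutation p of 0.0571 or 0.0952, the smallest that 4 against 3 and 5 against 2 clutches allow. This pair includes the called mitochondrial model and is not separate from that call. At the depth of the exposed libraries, 3 reads came to between 0.235 and 0.297 CPM.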
